A study of Mus musculus with 18 samples.

Results

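The interferon response genes described here were Irf7, Irf9, Stat2, Ifit3, Ifitm3, Ifi27, Gbp2 and Bst2, taken as every row of the 3 deposited tables whose symbol is one of these names. All 8 were measured, among 13784 genes in all, and each symbol stood on a single row. The tables come from bulk RNA sequencing of 18 mouse cortex samples in 4 groups. Control animals received saline (4 samples) or lipopolysaccharide (LPS, a bacterial outer membrane component that sets off innate immunity; 5 samples). Animals with an astrocyte-restricted conditional knockout (cKO) of the chromatin remodeller gene Chd8 likewise received saline (4 samples) or LPS (5 samples). The labels' protocols give an age of 4 to 6 months, an intraperitoneal LPS dose of 5 mg/kg, and collection of tissue 72 hours later. The promoter that drives the recombinase, the genotype of the controls and the sex of the mice are not given in the sources used here. The series was set up to look for expression changes from loss of Chd8 in astrocytes, at rest and during neuroinflammation.

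Interferons are secreted proteins that bind receptors on neighbouring cells and switch on an antiviral and inflammatory gene programme. Type I interferons act through the receptor chains Ifnar1 and Ifnar2 and the kinases Jak1 and Tyk2, which phosphorylate STAT factors; STAT2 and IRF9 are parts of the complex that then binds the interferon-stimulated response element (ISRE) in promoters. Interferon gamma acts through Ifngr1 and Ifngr2 and a STAT dimer, which binds the gamma-activated sequence (GAS). IRF7 is induced by this signalling and amplifies type I interferon production, while the effector genes act on membranes, RNA or pathogen compartments. In brain tissue, microglia, astrocytes and endothelial cells can all run this programme. In whole-cortex RNA, a change in the number of cells of a type and a change in RNA per cell cannot be told apart.

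Promoter sequences are shown because STAT and IRF factors act on this family through the ISRE, and the members differ in whether their windows hold it. RefSeq windows of 300 bases, from 250 before to 50 after the annotated start, were found by symbol for 7 of the 8 members on build GRCm38.p6 (the expression tables used GRCm39), with a pair of windows for Irf9; Ifi27 had no entry. Windows were searched on both strands for the ISRE core GAAANNGAAA (TTTCNNTTTC on the other strand) and the GAS core TTCNNNGAA. Capitals mark the ISRE core matches. The windows shown lie, in order, on chromosomes 19, 7, 3, 8 and 7.
Ifit3 promoter, chr19.0:34583279-34583578, plus strand: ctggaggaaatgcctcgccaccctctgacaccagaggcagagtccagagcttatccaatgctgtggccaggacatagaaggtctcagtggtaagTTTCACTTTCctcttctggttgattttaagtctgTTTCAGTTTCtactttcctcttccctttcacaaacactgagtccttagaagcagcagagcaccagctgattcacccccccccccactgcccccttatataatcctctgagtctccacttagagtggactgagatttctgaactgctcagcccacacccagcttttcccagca
Ifitm3 promoter, chr7.0:141010695-141010994, minus strand: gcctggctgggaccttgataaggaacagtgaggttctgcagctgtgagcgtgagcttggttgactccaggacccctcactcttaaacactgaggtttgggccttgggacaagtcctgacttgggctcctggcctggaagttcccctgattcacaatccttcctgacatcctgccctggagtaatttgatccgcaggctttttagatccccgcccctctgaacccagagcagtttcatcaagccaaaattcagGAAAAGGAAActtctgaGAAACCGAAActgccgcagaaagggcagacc
Gbp2 promoter, chr3.0:142620413-142620712, plus strand: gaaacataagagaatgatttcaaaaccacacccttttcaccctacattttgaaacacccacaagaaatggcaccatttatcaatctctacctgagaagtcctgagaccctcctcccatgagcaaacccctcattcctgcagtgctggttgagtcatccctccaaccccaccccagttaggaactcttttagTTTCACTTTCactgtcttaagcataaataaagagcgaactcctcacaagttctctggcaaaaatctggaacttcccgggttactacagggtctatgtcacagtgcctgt
Bst2 promoter, chr8.0:71537423-71537722, minus strand: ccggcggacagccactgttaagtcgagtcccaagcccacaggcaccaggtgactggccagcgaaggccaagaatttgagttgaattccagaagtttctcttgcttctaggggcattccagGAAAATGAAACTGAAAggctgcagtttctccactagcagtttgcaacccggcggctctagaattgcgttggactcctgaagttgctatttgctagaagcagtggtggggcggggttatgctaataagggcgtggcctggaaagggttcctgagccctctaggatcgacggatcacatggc
Irf7 promoter, chr7.0:141266375-141266674, minus strand: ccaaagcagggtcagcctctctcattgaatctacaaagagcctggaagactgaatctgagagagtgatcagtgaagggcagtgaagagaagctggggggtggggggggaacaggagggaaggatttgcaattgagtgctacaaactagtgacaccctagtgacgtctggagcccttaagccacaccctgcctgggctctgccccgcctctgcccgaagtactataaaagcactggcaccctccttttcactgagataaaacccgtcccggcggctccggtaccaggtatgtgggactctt
At least 1 ISRE core was present in the windows of 5 of these 7 members (Stat2, Ifit3, Ifitm3, Gbp2 and Bst2), while 3.44% of all 32851 RefSeq windows held one. Ifit3, Ifitm3 and Bst2 held 2 matches each, and those of Bst2 overlap. The matches lay from -156 to -147 and -122 to -113 bases from the start in Ifit3, from -59 to -50 in Gbp2, from -130 to -121 and -124 to -115 in Bst2, from -222 to -213 in Stat2, and from 3 to 12 and 20 to 29 bases past the start in Ifitm3. In the windows of Stat2 and Bst2, unlike the others, a stretch just after the start was not found in the gene's annotated coding transcripts. Positions in these windows rest on the RefSeq start alone. A GAS core was present in the windows of Ifitm3 and Bst2, against 8.30% of all windows, and each overlapped an ISRE match by 3 bases. Irf7 and both Irf9 windows held neither core. Windows without a match say only that these letters are absent there.

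**Figure D1:**
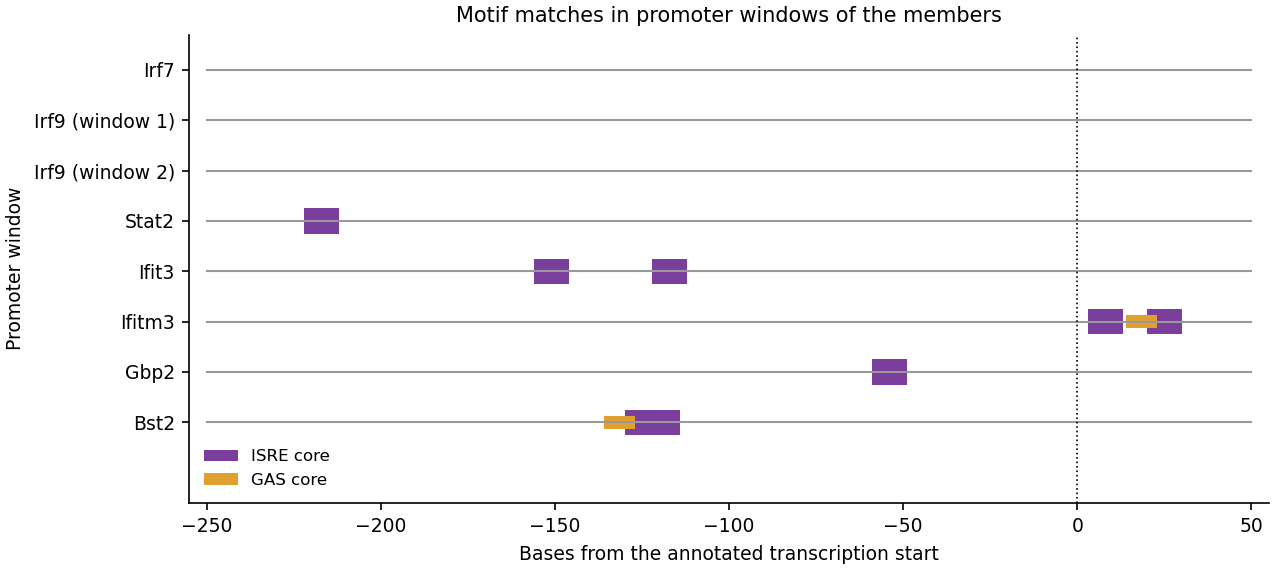
Matches of the ISRE core (purple, tall) and the GAS core (orange, short) in 8 promoter windows of 7 members, with the horizontal axis in bases from the annotated transcription start (dotted line). The windows of Irf7 and Irf9 hold no match, and the 2 ISRE matches and 1 GAS match in Ifitm3 lie past the start.

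After LPS 5 of the 8 members rose in control cortex and 1 of the 8 in cKO cortex, and no member passed the test between the genotypes after LPS. In the authors' deposited table for controls, Ifitm3, Gbp2, Bst2, Irf7 and Ifit3 rose and none fell at a false discovery rate (FDR) below 0.05, where 6.46% of all genes rose and 3.31% fell (9.76% in either direction). In the authors' deposited table for cKO mice, Ifitm3 rose and none fell, where 10.9% of all genes rose and 8.52% fell (19.5% in either direction). The count of 1 of 8 in cKO mice thus lay near the share of all genes that rose. At an unadjusted p below 0.05 the count was 7 of 8 in controls, against 28.9% of all genes, and 5 of 8 in cKO mice, against 35.8%. All 8 fold changes lay above 0 in each genotype. The median log2 fold change of the members was 0.87 in controls and 0.86 in cKO mice, while that of all genes was 0.00 in each. Among the members with a mean log2 CPM no lower than 1, which leaves out Bst2, the medians were 0.53 in controls and 0.83 in cKO mice. These counts are descriptions, since the genes were chosen with results of these tables known.

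**Figure D2:**
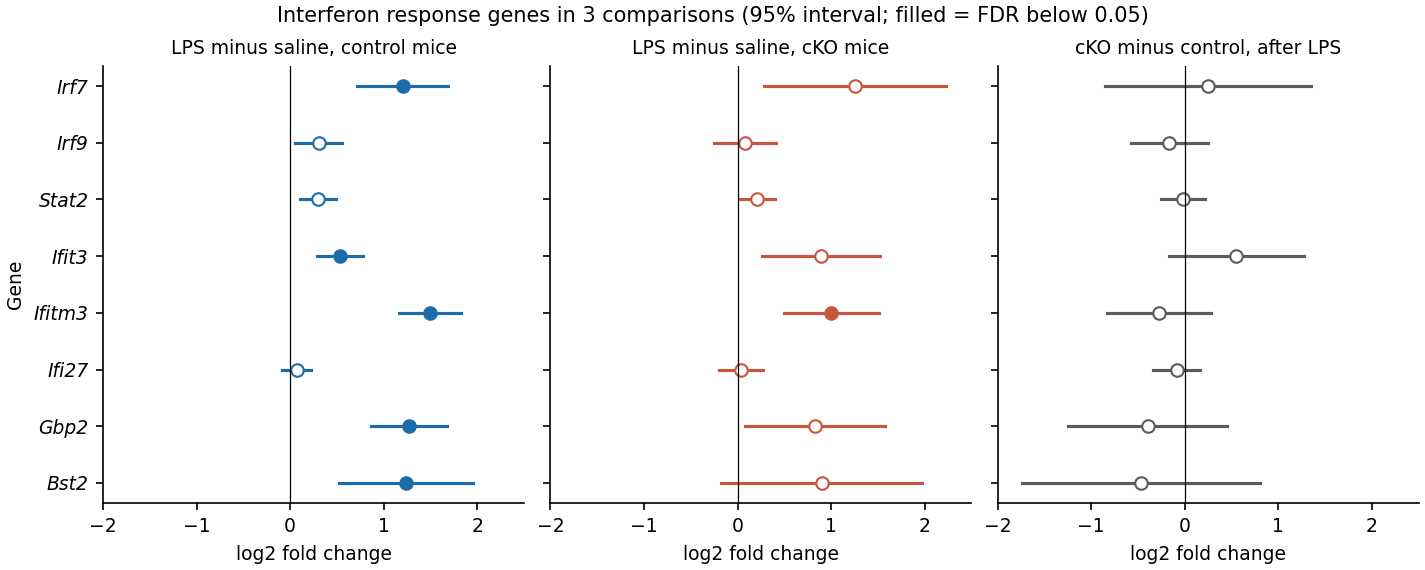
Log2 fold changes (horizontal axis) of the 8 members in the 3 deposited comparisons, with 95% intervals derived from the deposited F statistics; filled points have an FDR below 0.05. Of the 8 points, 5 are filled in controls, 1 is filled in cKO mice and none is filled between the genotypes after LPS.

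Values per library were not analysed here, so group levels in CPM (read counts scaled to a common library size) were back-calculated from each deposited fold change and mean log2 CPM. The LPS groups stand in more than 1 table, and a member's levels from different tables were at most 0.25 apart on the log2 scale. The tables were normalised separately, so levels set across them are estimates and no spread between samples can be given.

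Irf7, the transcription factor that amplifies the response, stood at 1.48 CPM in control saline and 1.76 CPM in cKO saline. After LPS it stood at 3.40 and 3.94 CPM in controls and at 4.21 and 4.69 CPM in cKO mice, from the respective tables. Both LPS groups were therefore above both saline groups. In the authors' deposited table for controls it rose by 1.20 ± 0.22 (log2 fold change ± SE, a 2.30-fold change, FDR = 0.0119), which placed it 146th of all genes. The authors' deposited table for cKO mice gave a log2 fold change of 1.26 ± 0.43 (FDR = 0.0688), the highest of the members there, which did not pass. Its standard error in cKO mice was 2.01 times that in controls.

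Stat2 and Irf9 encode parts of the type I signalling complex. Stat2 had back-calculated levels of 17.3 CPM in control saline, 21.2 CPM in control LPS, 18.3 CPM in cKO saline, and 21.1 and 20.9 CPM in cKO LPS. Irf9 stood at 10.1 CPM in control saline, 12.5 CPM in control LPS, 10.8 CPM in cKO saline, and 11.4 and 11.1 CPM in cKO LPS. Both genes were slightly higher in the LPS group of each genotype. For Stat2 the authors' deposited tables gave log2 fold changes of 0.30 ± 0.09 in controls (FDR = 0.0557) and 0.21 ± 0.09 in cKO mice (FDR = 0.114). For Irf9 the authors' deposited tables gave 0.30 ± 0.11 in controls (FDR = 0.110) and 0.08 ± 0.15 in cKO mice (FDR = 0.725). Neither gene passed in either genotype. Their 95% intervals in controls, 0.11 to 0.49 for Stat2 and 0.05 to 0.55 for Irf9, lay below that of Irf7, 0.72 to 1.69, as derived from the authors' deposited table.

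Ifitm3, a membrane protein that blocks the entry of enveloped viruses, had the highest fold change of the members in controls. It stood at 3.27 CPM in control saline and 4.05 CPM in cKO saline, at 9.22 and 10.6 CPM in control LPS, and at 8.13 and 8.75 CPM in cKO LPS. It was the sole member past the threshold in both genotypes. In the authors' deposited tables it rose by 1.5 ± 0.15 in controls (2.82-fold, FDR = 0.000422, 80th of all genes) and by 1.00 ± 0.23 in cKO mice (2.01-fold, FDR = 0.0186, 209th of all genes).

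Gbp2, an interferon-inducible GTPase of the guanylate-binding protein family that acts on pathogen-containing compartments, had a level of 2.91 CPM in control saline and 3.22 CPM in cKO saline. Its level was 7.01 and 7.94 CPM in control LPS and 5.72 and 6.03 CPM in cKO LPS. In the authors' deposited table for controls Gbp2 rose by 1.27 ± 0.18 (2.41-fold, FDR = 0.00376). In cKO mice the authors' deposited table gave 0.83 ± 0.33 (FDR = 0.108), with a 95% interval from 0.08 to 1.58.

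Bst2 encodes tetherin, a surface protein that holds budding virus particles on the cell. It stood at 0.891 CPM in control saline, 0.914 CPM in cKO saline, 2.10 and 2.49 CPM in control LPS, and 1.70 and 1.80 CPM in cKO LPS. It had the largest standard error of the members in each table. The authors' deposited table for controls gave a rise of 1.24 ± 0.32 (2.36-fold, FDR = 0.0417), and that for cKO mice gave 0.90 ± 0.48 (FDR = 0.212).

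Ifit3, which belongs to a family of proteins that bind viral RNA and adaptors of RNA sensing, was the only one of the 5 effector members with a larger fold change in cKO mice than in controls, a difference that did not pass the test given further on. It stood at 7.32 CPM in control saline, 8.10 CPM in cKO saline, 10.6 and 10.9 CPM in control LPS, and 15.1 and 16.0 CPM in cKO LPS. The cKO LPS group was thus the highest. Ifit3 rose by 0.53 ± 0.11 in controls (1.44-fold, FDR = 0.0214) in the authors' deposited table, and the authors' deposited table for cKO mice gave 0.89 ± 0.28 (1.86-fold, FDR = 0.0519). Its near copy Ifit3b showed the same order, with log2 fold changes of 0.37 in controls (FDR = 0.108) and 1.11 ± 0.30 among cKO animals (FDR = 0.0331) from the authors' deposited tables. Of the 50-base stretches of annotated Ifit3 transcripts, 51.2% also occur in Ifit3b, so reads may be split between these genes and their values are uncertain. The corresponding share with any other gene was 10.02% for Ifitm3, 2.48% for Irf9 and 2.07% for Gbp2, and 0 for Irf7, Stat2, Ifi27 and Bst2.

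Ifi27 was nearly flat. It stood at 18.2 CPM in control saline, 19.0 and 18.6 CPM in control LPS, 17.5 CPM in cKO saline, and 18.0 and 17.5 CPM in cKO LPS. The authors' deposited tables gave log2 fold changes of 0.07 ± 0.07 in controls (FDR = 0.548) and 0.04 ± 0.10 in cKO mice (FDR = 0.810), with 95% intervals from -0.09 to 0.23 and from -0.19 to 0.27. RefSeq also lists the name Ifi27 as a synonym of its neighbour Ifi27l2a, a symbol that was not found among the genes analysed. The values above belong to ENSMUSG00000064215, the row that the tables name Ifi27.

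**Figure D3:**
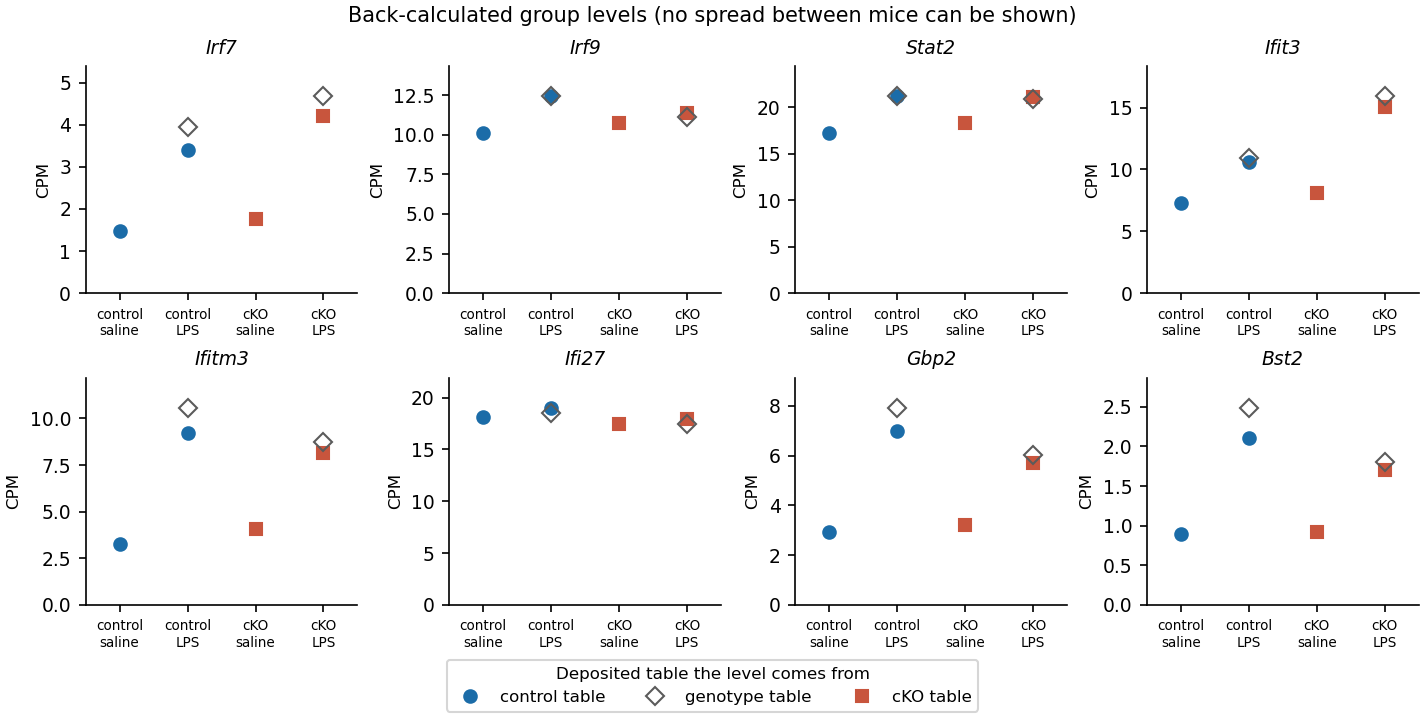
Back-calculated CPM (vertical axis, from 0) of each member in the 4 groups, with the marker showing which deposited table gave the level. Irf7, Ifit3, Ifitm3, Gbp2 and Bst2 are higher in both LPS groups than in both saline groups, and the levels of Ifi27 lie between 17.5 and 19.0 CPM in all 4.

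In the direct comparison of genotypes after LPS, which shares its LPS libraries with the tables above, 0 of 8 members were called by the authors' edgeR test. At an unadjusted p below 0.05 the count was also 0 of 8. Over all genes, 0.00725% passed the FDR and 12.3% the unadjusted p. Ifit3 had the highest value, at 0.55 ± 0.32 for cKO minus control (FDR = 0.510, 95% interval -0.17 to 1.27) in the authors' deposited table. Irf7 stood at 0.25 ± 0.48 (FDR = 0.864) in the authors' deposited table. The other 6 members lay below 0, from -0.02 ± 0.10 for Stat2 to -0.47 ± 0.56 for Bst2 (FDR = 0.958 and FDR = 0.762) in the authors' deposited table. Ifitm3 had -0.28 ± 0.24 (95% interval -0.83 to 0.28) and Gbp2 had -0.40 ± 0.37 (95% interval -1.24 to 0.45) in the authors' deposited table.

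Whether the LPS response itself differed between genotypes was tested from the separate tables for controls and cKO mice, which share no library. No member passed (0 of 8 at an FDR below 0.05 and 0 of 8 at an unadjusted p below 0.05, against 0.00725% and 6.52% of all genes), nor did any with standard errors taken from F. The errors and intervals of this difference come from normal quantiles of the deposited p-values. They are larger than those from F given for the single fold changes, and cannot be derived from them. For Ifitm3, the cKO response minus the control response was -0.49 ± 0.44 (FDR = 0.889, 95% interval -1.36 to 0.38). For Gbp2 it was -0.44 ± 0.50 (FDR = 0.918) and for Bst2 -0.34 ± 0.68 (FDR = 0.958). For Ifit3 it was 0.36 ± 0.38 (FDR = 0.906, 95% interval -0.39 to 1.11) and for Irf7 0.05 ± 0.62 (FDR = 0.992). Irf9, Stat2 and Ifi27 lay at -0.22, -0.09 and -0.03. The larger number of members past the threshold in controls than in cKO mice is therefore not a tested difference. Without a deposited table for saline, the cKO-minus-control difference there was estimated from the 3 fold changes with no test, and ranged from -0.13 for Bst2 to 0.22 for Ifitm3, with a median of 0.06. Taken instead from the back-calculated saline levels, the estimate was 0.04 for Bst2, so its sign is not settled, and 0.31 for Ifitm3, with a median of 0.12. Sex-linked transcripts differed between the saline groups, as given further on, so a part of sex in these differences cannot be told apart.

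Most members' LPS fold changes had a larger standard error in cKO mice. Such an error holds the spread between samples as well as counting noise, and these were not told apart. The standard error of the LPS fold change, derived from the authors' deposited tables, was larger in cKO mice for 7 of the 8 members and practically equal for Stat2. The ratio had a median of 1.52 and ranged from 1.00 for Stat2 to 2.55 for Ifit3. Over all genes the median ratio was 0.981, and 47.0% had a larger error in cKO mice. The median ratio was 1.18 over the 890 genes that rose in controls, a set for which a small error in controls helped the call, and 1.17 over 58 other interferon pathway genes. The same limit applies to the 5 members called in controls, which were chosen with these results known. Among them, Irf7 had close fold changes in the genotypes and a ratio of 2.01.

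**Figure D4:**
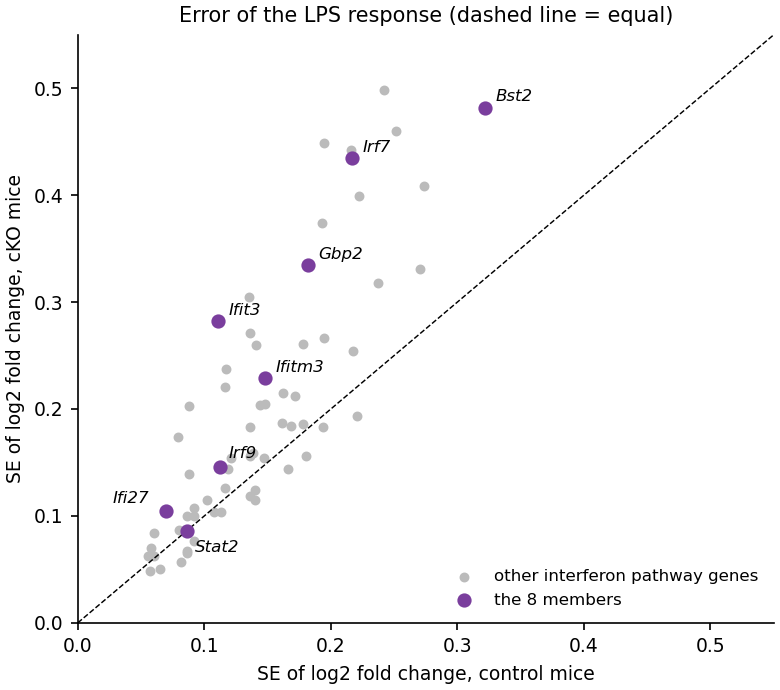
Standard error of the log2 fold change for LPS in cKO mice (vertical axis) against that in control mice (horizontal axis) for the 8 members (purple) and 58 other interferon pathway genes (grey). Of the members, 7 lie above the dashed line of equal error and Stat2 lies on it, with a ratio of 1.00.

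The rest of the pathway was examined by role in 58 measured genes of 93 listed. Listed genes not found by symbol included Isg15, Usp18, Mx1 and Rsad2. Of the 58 measured genes, 21 rose and 0 fell in controls and 9 rose and 3 fell in cKO mice. Over all genes 6.46% rose and 3.31% fell in controls, and 10.9% rose and 8.52% fell in cKO mice, so that in cKO mice the 12 calls in either direction lay near the 19.5% of all genes called. The median log2 fold changes of the 58 genes were 0.36 and 0.35. None of the interferon genes listed as ligands was among the genes analysed. Of 5 receptor genes, Ifngr1 rose in controls (0.44 ± 0.08, FDR = 0.0120), and Ifnar2 (0.34 ± 0.10, FDR = 0.0402) and Il10rb (0.34 ± 0.10, FDR = 0.0473), which is shared with interleukin 10, rose in cKO mice in the authors' deposited tables. In controls Ifnar1, Ifnar2, Ifngr2 and Il10rb had 0.15, 0.30, 0.18 and 0.32 in the authors' deposited table, and in cKO mice Ifnar1, Ifngr1 and Ifngr2 had -0.04, 0.43 and 0.04, none of them past the threshold. Of the kinases, the authors' deposited table for cKO mice shows that Jak2 fell by 0.32 ± 0.08 (FDR = 0.0203). Jak1, Tyk2 and, in controls, Jak2 did not pass, with values from -0.14 to 0.10 in the authors' deposited tables.

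Among 6 further STAT and IRF factors, Irf8, a lineage factor of microglia and other myeloid cells, rose in controls (0.68 ± 0.14, FDR = 0.0172) and had 0.32 ± 0.12 in cKO mice (FDR = 0.0816), both from the authors' deposited tables. Irf1, Irf2, Irf3 and Irf5 passed in neither genotype. Their log2 fold changes were 0.35, 0.57, 0.08 and 0.36 in controls and 0.49, 0.47, -0.02 and 0.36 in cKO mice, in that order, in the authors' deposited tables. Of 6 negative regulators, the phosphatase gene Ptpn6 rose in controls (1.22 ± 0.18) and in cKO mice (1.21 ± 0.26), and Irf2bp2 fell in cKO mice (-0.29 ± 0.06) in the authors' deposited tables.

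Of 41 further effectors listed, of the IFIT, IFI and OAS kind, 25 were measured. Of these 25, 10 rose and 0 fell in controls, and 6 rose and 1 fell in cKO mice. The counts by role stand beside rises of 6.46% of all genes in controls and 10.9% in cKO mice. Among genes past the threshold, the largest rises in controls were Lgals3bp, a secreted glycoprotein (1.56 ± 0.14), the OAS-like gene Oasl2 (1.24 ± 0.24) and Sp100, a nuclear body component (1.13 ± 0.19), in the authors' deposited table. Among those past it in cKO mice they were Lgals3bp (1.66 ± 0.26), Ifit3b and Trim25, a ubiquitin ligase of RNA sensing (0.93 ± 0.21), and Herc6 fell (-0.36 ± 0.10), in the authors' deposited table. Oasl2 had 1.31 ± 0.50 there and did not pass (FDR = 0.0902), from the authors' deposited table. Of 3 measured relatives of Ifitm3, Ifitm1 (0.90 ± 0.24) and Ifitm2 (0.73 ± 0.12) rose in controls in the authors' deposited table. None passed in cKO mice, where the authors' deposited table gave 0.58 ± 0.32 for Ifitm1 (FDR = 0.222) and 0.68 ± 0.22 for Ifitm2 (FDR = 0.0578). Of 10 relatives of Gbp2 and immunity-related GTPases, 6 rose in controls, led by Gbp4 (1.59 ± 0.19), Gbp5 (1.25 ± 0.27) and Gbp9 (0.93 ± 0.17) in the authors' deposited table. None of these 10 passed in cKO mice, where their median was 0.61 against 0.81 in controls, and all 10 lay above 0 in each genotype. With 10.9% of all genes rising in cKO mice, 0 of 10 is not far from that share. Between the genotypes after LPS, 0 of the 58 genes were called by the authors' edgeR test and 4 had an unadjusted p below 0.05, and for the difference of the LPS responses the counts were 0 and 2. The unadjusted counts stand beside 12.3% and 6.52% of all genes, and both are lower shares of the 58.

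**Figure D5:**
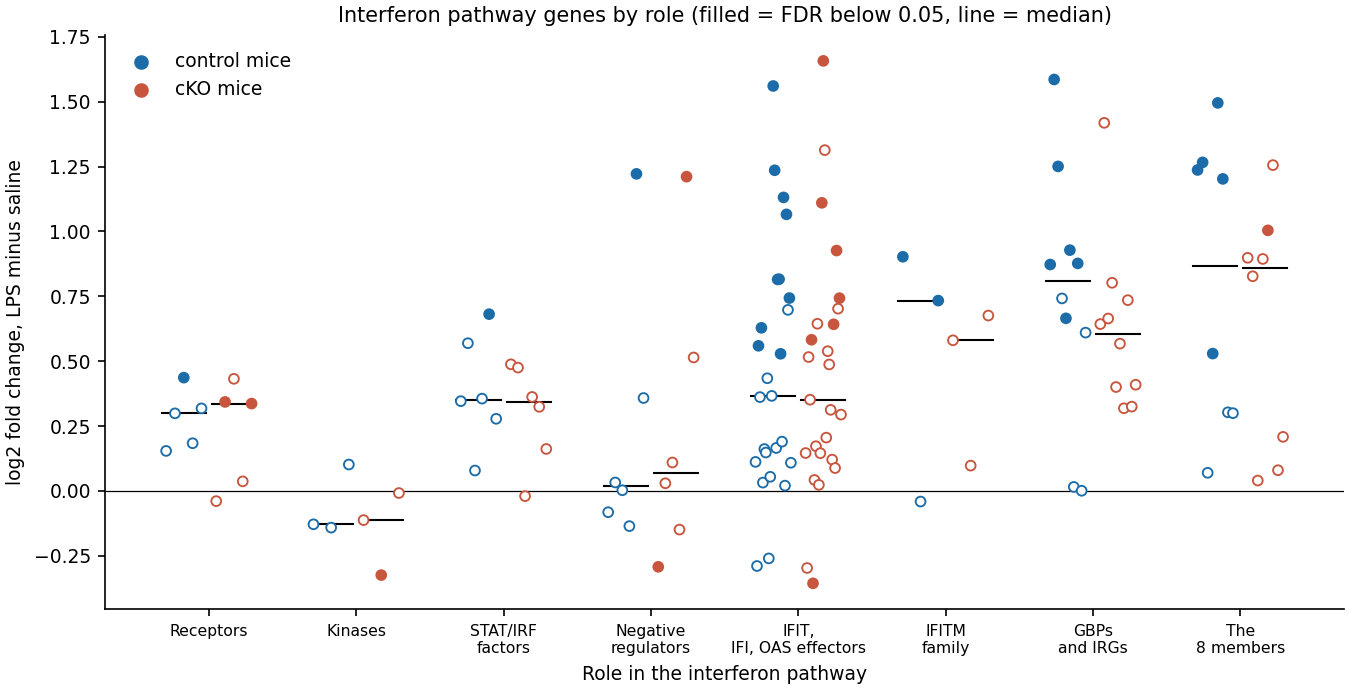
Log2 fold changes for LPS (vertical axis) of 58 interferon pathway genes by role and of the 8 members, in control mice (blue) and cKO mice (red); filled points have an FDR below 0.05 and lines are medians. The GTPase column holds 6 filled points in controls and 0 in cKO mice, with medians of 0.81 and 0.61, and all 10 genes lie above 0 in each genotype.

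Several cell type markers rose or fell in the same comparisons, in which 6.46% of all genes rose and 3.31% fell in controls and 10.9% rose and 8.52% fell in cKO mice. Of 8 microglia markers, 6 rose and 0 fell in controls and 4 rose and 1 fell in cKO mice, and their summed back-calculated level went from 288 to 445 CPM in controls and from 292 to 372 CPM in cKO mice. Of 8 endothelial markers, 6 rose in controls and 5 in cKO mice, with summed levels of 157 and 299 CPM in controls and 153 and 270 CPM in cKO mice. In the table of genotypes after LPS, the summed microglia level was 459 CPM in controls and 374 CPM in cKO mice, and that of endothelial markers 319 and 285 CPM. Of 12 markers of infiltrating leukocytes, 1 was among the genes analysed, the pan-leukocyte gene Ptprc, which microglia also express, and it rose by 1.49 ± 0.19 in controls and 1.01 ± 0.31 in cKO mice in the authors' deposited tables. Of 8 astrocyte markers, 1 rose (Gfap) and 1 fell in controls and 0 rose and 3 fell in cKO mice. Gfap had 1.35 in controls (FDR = 0.000286) and 1.06 in cKO mice (FDR = 0.0548) in the authors' deposited tables. The summed level of the 8 markers was 3974 and 3854 CPM in controls and 4586 and 4093 CPM in cKO mice. In the table of genotypes after LPS it was 3716 CPM in controls and 3922 CPM in cKO mice. There 0 of the 8 were called by the authors' edgeR test, and 3 had an unadjusted p below 0.05, against 12.3% of all genes. The part of these shifts in the members' changes was not tested.

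All 8 of 8 cortical excitatory neuron markers were measured, at a summed 2026 CPM in control saline, 2513 CPM in control LPS, 2051 CPM in cKO saline and 2451 CPM in cKO LPS, and 2 of the 8 (Camk2a and Tbr1) rose in each genotype. Levels of markers of tissue next to the cortex also differed between groups. The 6 striatal markers summed to 206 CPM in control LPS and 310 CPM in cKO LPS, and the 3 choroid plexus markers measured summed to 114 CPM in control saline, 11.4 CPM in control LPS, 117 CPM in cKO saline and 22.1 CPM in cKO LPS. None of the choroid plexus markers passed in any comparison. Of the 6 striatal markers, 0 passed between genotypes after LPS and 0 for LPS in controls. In cKO mice 2 of the 6 rose after LPS, against 10.9% of all genes. These were Drd2 (0.78, FDR = 0.0449) and Ppp1r1b (0.45, FDR = 0.0454) in the authors' deposited table. The summed striatal level went from 230 to 215 CPM in controls and from 267 to 313 CPM in cKO mice. For Chd8 in whole cortex, cKO minus control after LPS was 0.02 ± 0.05 (FDR = 0.901) in the authors' deposited table, and the level per sample was not analysed here. Sex-linked transcripts differed between groups: the Y-linked gene Ddx3y was back-calculated at 0.00687 CPM in control saline, 12.8 CPM in control LPS, 58.6 CPM in cKO saline and 52.5 CPM in cKO LPS, and the X-linked Xist at 177, 161, 20.3 and 60.0 CPM. For LPS in controls, Ddx3y (10.9, FDR = 0.0351) and the Y-linked Uty (9.81, FDR = 0.0377) passed in the authors' deposited table, while Xist did not (FDR = 0.938). A part of sex in the LPS changes of controls cannot be told apart here. The same holds for the saline estimate between genotypes and for the difference of the LPS responses, which both use control saline. The part of these differences in the members' changes was not tested.

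By the distance between the 3 log2 fold changes of a gene and the members' median values, the members themselves lay between 0.48 (Gbp2) and 1.14 (Ifi27) from the median. Among the closest of 13017 other genes were Spint1, a protease inhibitor gene (0.0498), Bgn, which encodes the matrix proteoglycan biglycan (0.0689), Lsr (0.0845) and Synpo2 (0.0850). Their log2 fold changes lay between 0.82 and 0.92 in controls and between 0.78 and 0.89 in cKO mice in the authors' deposited tables. This likeness rests on 3 values per gene from 18 samples.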

How the data were processed

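RNA of 18 cortex samples was sequenced from ribosome-depleted, stranded libraries, per the labels' protocols. The submitters' processing notes name cutadapt 3.5, STAR, RSEM, edgeR 3.30.3 and the build GRCm39, without role or order. The authors deposited 3 tables, 1 per comparison. Per the file headers, each gives, for 13784 genes, the log2 fold change, the mean log2 CPM, the F statistic (used as a score), the p-value and the FDR. The sources used here do not state how genes were filtered. Samples were grouped by the genotype label, which also names the treatment; every title carries the word saline. The labels number the samples of a group and do not say that each is a separate animal, so p-values measure the spread between these samples.

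Fold changes were read as LPS minus saline and cKO minus control. With these signs, levels of the LPS groups from different tables differed by an SD of at most 0.0537 log2 CPM over genes, against at least 0.226 otherwise. Standard errors are the absolute fold change over the root of F, and 95% intervals use the implied 9.85 (controls), 9.76 (cKO) and 8.66 (genotype) denominator degrees of freedom. Levels assume that mean log2 CPM is the log2 of the mean CPM and that libraries weigh equally. The difference of LPS responses used standard errors obtained by turning each deposited p-value into a normal quantile, which are larger than those from F, and Benjamini-Hochberg adjustment over all genes, in Python 3.11.15 with scipy 1.17.1.

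A gene was called at FDR below 0.05. Named genes were all members, the 3 largest rises and falls per role list and comparison, all receptors, kinases and STAT or IRF factors, and the 5 most alike genes whose mean log2 CPM was 0 or more; some of these are not reported here. Members and lists were chosen with earlier results of these data known. Values per library were not used here, so depth is unknown.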

Additional observations from a re-analysis of the deposited data

How the results depend on the processing

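The alternatives were FDR below 0.1 or 0.01, a minimum fold of 1.5, a floor of 1 on mean log2 CPM, and centring on the median of all genes, which by construction leave the fold changes in place or nearly so and bear on the calls only. Apart from these, the saline estimate for Bst2, which had no test, went from -0.13 to 0.04 when taken from the back-calculated levels, and the members' median from 0.06 to 0.12. At FDR below 0.01 the members called numbered 2 of 8 in controls and 0 of 8 in cKO mice. The other pathway genes called numbered 6 and 1 of 58, beside 264 and 445 of all 13784 genes. At FDR below 0.1, 3 of 8 members were called in cKO mice, with Irf7 and Ifit3 added, and 25 of 58 pathway genes. Calls over all genes there numbered 4092 of 13784. With a minimum fold of 1.5, 6 of 58 pathway genes were called in cKO mice, beside 649 of all 13784 genes. Ifit3 lost its call in controls under this limit. With the floor of 1 the members' median in controls was 0.53, because Bst2 leaves the set. Reading the mean log2 CPM as a mean of logs brought a member's largest gap from table to table to 0.14 log2 CPM and moved member levels by at most 0.18.

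Over all genes, calls in controls numbered 1346, against 2557 at FDR below 0.1, 264 at FDR below 0.01 and 498 with the minimum fold, when 91.8% of them were rises. In cKO mice they numbered 2681, against 4092, 445 and 649, when 85.7% were rises. No member was called between genotypes or for the difference of LPS responses in any alternative, including standard errors from F with Welch-Satterthwaite degrees of freedom. No paired analysis was possible because values per library were not used here, and for the same reason leaving out each replicate was not run. Depth cannot be given, and Bst2 had the largest standard errors of the members.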
